A study of Mus musculus with 2 samples.

Results

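The 10 genes described here encode the receptors for insulin and the insulin-like growth factors and the first steps below them: Insr, Insrr, Igf1r, Igf2r, Irs1, Irs2, Pik3r1, Akt2, Foxo1 and Igf1. They were taken by symbol from the 31053 genes of the count tables, and all 10 had a row. Insulin and IGF1 bind receptor tyrosine kinases at the cell surface, which phosphorylate the docking proteins IRS1 and IRS2. These recruit PI3-kinase, whose lipid product activates AKT, and AKT in turn phosphorylates the transcription factor FOXO1 and keeps it out of the nucleus. In the pancreatic islet the pathway is known for its part in β cell growth and survival, and IRS2 in particular is needed for β cell mass in mice.

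Single-cell RNA sequencing was done on pancreatic islets of wild-type C57BL/6J female mice, in 1 library per group. Multipara mice entered the study at 9 weeks of age and went through 3 pregnancies in a row, and their islets were taken 3 weeks after the last delivery; virgin mice of the same age were the controls. Both groups' islets spent time in serum-containing medium and were dissociated with trypsin before capture. The labels do not say how many mice were pooled in a library, and the study gives only a minimum per group. No file used here splits the cells by mouse, so mouse-to-mouse spread could not be estimated, no p-value is given, and each interval below is a 95% interval that covers counting error only.

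The virgin library held 5463 cell barcodes with 94853806 UMIs (unique molecular identifiers, 1 per captured transcript), and the multipara library 5075 barcodes with 82503776 UMIs. Only 7 barcodes occurred in both libraries. After the study's cell filter and removal of doublets, 4330 virgin and 3330 multipara cells were kept. Cells were gated on hormone or marker UMIs, and each class is called "-like" for that reason. The gates gave 1696 virgin and 1491 multipara beta-like cells, 906 and 534 alpha-like, 95 and 103 delta-like, 68 and 71 PP-like, 259 and 219 endothelial-like, 64 and 61 pericyte-like, 81 and 100 macrophage-like, 127 and 40 T cell-like and 177 and 39 B cell-like cells. Fibroblast-like cells numbered 59 in the virgin library and 6 in the multipara library, so only the virgin values are given.

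Genes that no gate used followed the class names. Mafa, a β cell transcription factor, stood at 871 and 926 CPM in virgin and multipara beta-like cells and at no more than 60.4 CPM elsewhere. Hhex, a δ cell factor, reached 489 and 485 CPM in delta-like cells, and Egfl7, an endothelial gene, 2100 and 2336 CPM in endothelial-like cells. Here and below, CPM is the number of UMIs of a gene per 1000000 UMIs of the class after leaving out 8 hormone genes, which took 62.1% and 63.2% of the UMIs of beta-like cells and 1.32% and 2.21% of those of endothelial-like cells. Transcripts of β cell genes were counted in every other class. The summed level of Mafa, Slc2a2 and Ucn3 there was 0.600% to 3.78% of that in beta-like cells. Whether these transcripts were free RNA in all droplets or came from a few mixed droplets was not tested. A gene at that share of its β cell level was read as background.

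Insr, the insulin receptor (ENSMUSG00000005534; chr8:3122061-3279617, reverse strand, GRCm38, here and below with GENCODE M21 annotation), was highest in endothelial-like cells. Its level there was 216 CPM in the virgin library (95% interval 192 to 242, 297 UMIs) and 311 CPM in the multipara library (283 to 341, 460 UMIs). In beta-like cells it was 27.1 CPM (24.8 to 29.5) and 21.7 CPM (19.5 to 24.0). Endothelial-like cells thus stood 7.96-fold and 14.3-fold above beta-like cells, and this direction held under all 12 alternative settings. Alpha-like, delta-like, PP-like and pericyte-like cells lay between 15.6 and 39.3 CPM in either library, with intervals that overlapped those of beta-like cells except for multipara alpha-like cells, while T cell-like and B cell-like cells had at most 3 UMIs. Endothelial-like cells made up 5.98% and 6.58% of the kept cells but carried 23.6% and 42.4% of all Insr UMIs; beta-like cells carried 40.5% and 33.4%. An Insr UMI was seen in 49.4% and 58.0% of endothelial-like cells, at median depths of 4380 and 5181 UMIs, and in 26.4% and 21.1% of beta-like cells at 30330 and 32730 UMIs. With every cell thinned to 3000 UMIs the shares were 41.3% and 46.8% of endothelial-like against 2.54% and 2.49% of beta-like cells, most of whose UMIs are hormone transcripts.

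Insrr, the insulin receptor-related receptor, an orphan relative that responds to alkaline pH rather than to insulin (ENSMUSG00000005640; chr3:87796951-87816101, forward strand, with Pear1 on the opposite strand), had the opposite pattern. Beta-like cells held 134 CPM (129 to 139) and 115 CPM (110 to 120), followed by delta-like cells at 54.1 CPM (38.6 to 73.6) and 21.6 CPM (12.1 to 35.6). Alpha-like cells were at 12.1 and 8.57 CPM, which is 9.0% and 7.44% of the beta-like level. Mafa, Slc2a2 and Ucn3 together stood at 0.822% and 1.36% there. Endothelial-like cells held 3 and 4 Insrr UMIs, 1.62% and 2.35% of the beta-like level, close to Mafa, Slc2a2 and Ucn3 together at 1.09% and 1.69%. Beta-like cells accounted for 81.7% and 87.6% of all Insrr UMIs in kept cells, the largest such share among the 10 genes in either library.

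Igf1r, the receptor tyrosine kinase for IGF1 (ENSMUSG00000005533; chr7:67952827-68233668, forward strand), was also highest in beta-like cells on this scale, at 116 CPM (111 to 121, 2181 UMIs) in the virgin and 166 CPM (160 to 173, 2788 UMIs) in the multipara library. With hormone UMIs left in the denominator, virgin beta-like cells were at 44.0 CPM. Virgin delta-like (62.0), pericyte-like (58.1) and endothelial-like cells (45.9) then lay above them. Multipara beta-like cells were at 61.3 and delta-like cells at 57.5 CPM on that scale. Delta-like cells came next at 86.5 CPM (66.6 to 110) and 82.1 CPM (62.2 to 106). Alpha-like cells stood far lower, at 31.8 CPM (28.1 to 35.8) and 22.9 CPM (19.0 to 27.3), which is 27.4% and 13.7% of the beta-like level. Endothelial-like, PP-like and pericyte-like cells had intervals that overlapped one another and lay between 29.4 and 59.2 CPM. T cell-like cells were at 22.5 and 49.2 CPM from 10 and 8 UMIs. Macrophage-like and virgin B cell-like cells had 5 to 8 UMIs each.

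Igf2r, which encodes the mannose 6-phosphate receptor that carries lysosomal enzymes and takes up IGF2 for degradation (ENSMUSG00000023830; chr17:12682406-12769664, reverse strand, with the noncoding Airn on the opposite strand), lay between 25.5 and 54.7 CPM in the endocrine, endothelial-like and pericyte-like classes. Beta-like cells were at 42.3 CPM (39.4 to 45.3) and 38.9 CPM (35.9 to 42.0), and endothelial-like cells at 48.7 and 50.01 CPM. Alpha-like cells were lower at 25.5 CPM (22.3 to 29.2) and 27.1 CPM (22.8 to 31.9). Macrophage-like cells held only 2 and 1 UMIs.

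**Figure D1:**
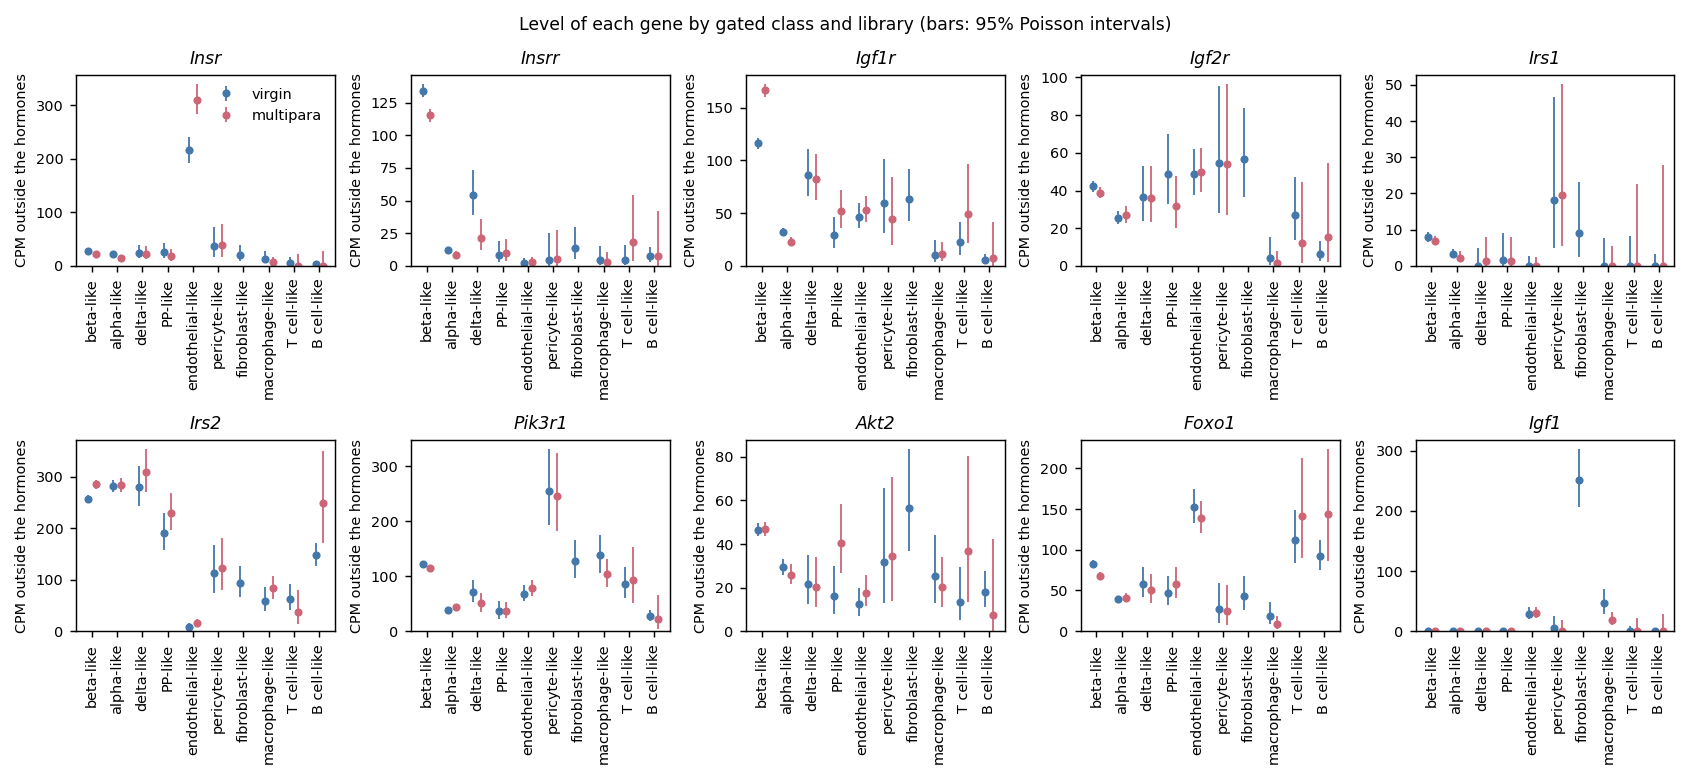
Level of each of the 10 genes in CPM outside the hormones (y axis, linear, from 0) in each gated class (x axis), with virgin in blue and multipara in red; points are class sums and bars are 95% Poisson intervals. Insr peaks in endothelial-like cells (216 and 311 CPM), Insrr and Igf1r in beta-like cells, Irs2 is high in all 4 endocrine classes, and Igf1 is at 0 in all of them.

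Of the docking proteins, Irs2 (ENSMUSG00000038894; chr8:10984681-11008458, reverse strand) was high in the endocrine classes. It was at 257 CPM (250 to 265) and 285 CPM (277 to 293) in beta-like, 282 CPM (271 to 294) and 283 CPM (269 to 298) in alpha-like, and 280 CPM (243 to 321) and 310 CPM (270 to 354) in delta-like cells; these 3 classes differed by less than the scaling did, since the order of alpha-like and beta-like cells turned in at least 1 library under 7 of the 12 alternatives. PP-like cells held 191 and 230 CPM. Irs2 was not restricted to these classes: B cell-like cells were at 147 CPM (126 to 172) and 249 CPM (172 to 350), 57.2% and 87.5% of the beta-like level, and in the multipara library their interval overlapped those of all 4 endocrine classes. Endothelial-like cells were at 8.72 CPM (4.50 to 15.2) and 16.2 CPM (10.4 to 24.1), or 3.39% and 5.69% of the beta-like level. Irs2 and Insr were thus opposite in endothelial-like cells, where the receptor was at its highest and the docking protein at its lowest of the compared classes. This did not hold for every class, since macrophage-like and T cell-like cells were low in both. Irs1 (ENSMUSG00000055980; chr1:82233101-82291416, reverse strand) was sparse in all classes. Beta-like cells held 149 and 115 UMIs, 7.93 and 6.87 CPM, and endothelial-like cells held none, so that they lay at least 3.64-fold and 3.39-fold lower when 3 counts are taken as the limit of a count of 0. Pericyte-like cells had 4 UMIs in each library, 18.2 CPM (4.96 to 46.6) and 19.7 CPM (5.36 to 50.3), and their intervals overlapped those of beta-like cells in both libraries.

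Pik3r1, the p85α regulatory subunit of PI3-kinase (ENSMUSG00000041417; chr13:101680563-101768217, reverse strand), was highest in pericyte-like cells at 255 CPM (193 to 331) and 246 CPM (182 to 324), above beta-like cells at 122 CPM (117 to 127) and 115 CPM (110 to 121). Alpha-like cells were at 38.9 and 43.6 CPM, 31.8% and 37.8% of beta-like cells. Akt2, the AKT form most tied to insulin-driven glucose uptake (ENSMUSG00000004056; chr7:27591552-27640826, forward strand), was at 46.5 CPM (43.5 to 49.7) and 46.8 CPM (43.6 to 50.2) in beta-like cells. These were the highest values of the classes with 30 cells in both libraries, but the intervals of the next classes overlapped them. With hormone UMIs left in the denominator, pericyte-like cells stood higher, at 31.3 and 32.9 CPM against 17.6 and 17.2 CPM in beta-like cells. Virgin pericyte-like cells were at 31.9 CPM (12.8 to 65.7) and multipara PP-like cells at 40.3 CPM (26.8 to 58.2). Virgin fibroblast-like cells stood at 56.6 CPM (36.7 to 83.6). Endothelial-like cells were at 12.3 and 17.6 CPM. Foxo1 (ENSMUSG00000044167; chr3:52268336-52353221, forward strand) was at 153 CPM (133 to 175) and 139 CPM (121 to 160) in endothelial-like cells, 112 and 142 CPM in T cell-like, and 92.6 and 143 CPM in B cell-like cells, with overlapping intervals for the neighbours in that order. Beta-like cells stood lower, at 82.9 CPM (78.8 to 87.1) and 68.2 CPM (64.3 to 72.3), and alpha-like cells at 39.1 and 41.3 CPM. The virgin log2 ratio of B cell-like over beta-like cells was only 0.16, with an interval that held 0 (-0.14 to 0.45). Its direction turned in at least 1 library with mitochondrial UMIs under 5% or with gate shares halved.

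Igf1, the circulating and local growth factor (ENSMUSG00000020053; chr10:87858265-87937042, forward strand, with Igf1os on the opposite strand), was the only one of the 10 genes without a single UMI in the 4 endocrine classes of either library. In beta-like cells, 0 UMIs allow a level of up to 0.160 CPM in the virgin and 0.179 CPM in the multipara library. Virgin fibroblast-like cells held 111 UMIs, 252 CPM (207 to 303), in 37 of 59 cells. Endothelial-like cells held 40 and 45 UMIs, 29.1 CPM (20.8 to 39.6) and 30.4 CPM (22.2 to 40.7), at least 182-fold and 170-fold above beta-like cells. In macrophage-like cells the 22 and 13 UMIs, 46.6 and 18.9 CPM, came from only 5 of 81 and 4 of 100 cells, with up to 14 UMIs in 1 cell.

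Counted against beta-like cells, with a gene called when it lay past 2-fold the same way in both libraries and had at least 50 UMIs over the cells compared, 4 of the 10 genes were lower in alpha-like cells (Insrr, Igf1r, Irs1 and Pik3r1) and none was higher. Over all 12391 genes tested, 19.3% were called. In delta-like cells 3 were lower (Insrr, Irs1 and Akt2), where 16.2% of all genes were called. Irs1 rested there on 0 and 1 UMIs. With 3 counts as the limit of 0 it lay at least 1.96-fold lower in the virgin library, short of 2-fold. Its multipara log2 ratio had an interval of -7.57 to 0.25. In endothelial-like cells Insr and Igf1 were higher and Insrr, Igf1r, Irs1, Irs2 and Akt2 were lower, 7 of 10 beside 48.8% of all genes. A gene could meet the minimum of UMIs through 1 class alone. Irs1 did so through beta-like cells in each comparison, and Igf1 through endothelial-like cells. The scale matters for these counts: with hormone UMIs left in the denominator the median of all genes in alpha-like over beta-like cells moved from -0.22 to 0.45 (log2, virgin), and Insr, which lay below beta-like cells in alpha-like cells here, then lay above them in both libraries, as did Igf2r in the multipara and Akt2 in the virgin library only. Igf1r, called lower in endothelial-like cells, lay above beta-like cells on that scale in the virgin library.

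The comparison the study was built for is multipara against virgin. A gene was called when the ratio of its levels passed 1.5-fold either way and it had at least 50 UMIs over both libraries. In beta-like cells 9 of the 10 genes had enough UMIs and none was called, beside 6.44% of 11744 genes. The median log2 ratio of the 9 genes was -0.12 and that of all genes was -0.04. The ratios of the 9 genes lay on both sides of 0.

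Igf1r had the largest ratio of the 9 genes. From 116 CPM in virgin to 166 CPM in multipara beta-like cells its log2 ratio was 0.52 (0.44 to 0.60), a value that only 349 of 11738 genes, 2.97%, exceeded. It stayed between 0.35 and 0.62 under every alternative setting. In alpha-like cells the same gene lay the other way, at 31.8 CPM in virgin and 22.9 CPM in multipara cells, with a log2 ratio of -0.47 (-0.80 to -0.16). In delta-like cells the ratio was -0.08 (-0.62 to 0.46), and in PP-like cells 0.82 (-0.04 to 1.72) from 18 and 36 UMIs. Whether the ratios differ between classes was not tested, since each class has 1 library per group.

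Insr lay on opposite sides in β cells and endothelium. In beta-like cells its log2 ratio was -0.32 (-0.52 to -0.12), with 0.07 when all cells were thinned to 3000 UMIs, and in alpha-like cells -0.52 (-0.91 to -0.14), with 0.13 as the highest value among the alternatives. In endothelial-like cells it was 0.53 (0.31 to 0.74), between 0.43 and 0.58 under the alternatives, and 3.69% of the genes ranked there lay higher. Within both libraries the endothelial-like level remained far above the endocrine levels, so the gap between the classes was wider in the multipara library.

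Foxo1 was lower in multipara beta-like cells, with a log2 ratio of -0.28 (-0.39 to -0.17) that stayed between -0.41 and -0.23 under the alternatives. Irs2 was slightly higher at 0.15 (0.09 to 0.20), with a range of 0.02 to 0.18. Insrr was lower at -0.22 (-0.31 to -0.13), but lay at 0.11 when each cell had equal weight. The intervals of the other 4 genes held 0: Igf2r at -0.12 (-0.27 to 0.03), Irs1 at -0.21 (-0.57 to 0.15), Pik3r1 at -0.08 (-0.17 to 0.01) and Akt2 at 0.01 (-0.13 to 0.15).

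In alpha-like cells 0 of the 8 genes with enough UMIs were called, beside 4.58% of all genes, and in endothelial-like cells 0 of 6, beside 6.47%. In delta-like cells 1 of 6 was called, beside 6.93%: Insrr, with 40 virgin and 15 multipara UMIs, had a log2 ratio of -1.32 (-2.29 to -0.44), below all but 3 of the 4735 genes ranked. The delta gate asks for little Ppy, and most mouse cells with much Sst also held Ppy UMIs. With Ppy allowed, the class grew to 331 virgin and 295 multipara cells, and Insrr stood at 48.5 and 31.7 CPM from 120 and 65 UMIs, a log2 ratio of -0.61 (-1.07 to -0.16). Insrr was thus lower in the multipara library in both gates, by a smaller amount in the larger class.

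The small classes gave little. In PP-like cells 2 of 4 genes were called, beside 5.8% of all genes: Igf1r (above) and Igf2r at -0.63 (-1.49 to 0.21), both with intervals that held 0. In pericyte-like cells 0 of 2 were called, beside 12%, in macrophage-like cells 0 of 2, beside 16.3%, and in T cell-like cells 0 of 2, beside 21.8%. In B cell-like cells Irs2 at 0.76 (0.17 to 1.30) and Foxo1 at 0.63 (-0.16 to 1.35) were both called, 2 of 2 beside 38.2% of all genes, and both changed sign under an alternative setting.

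**Figure D2:**
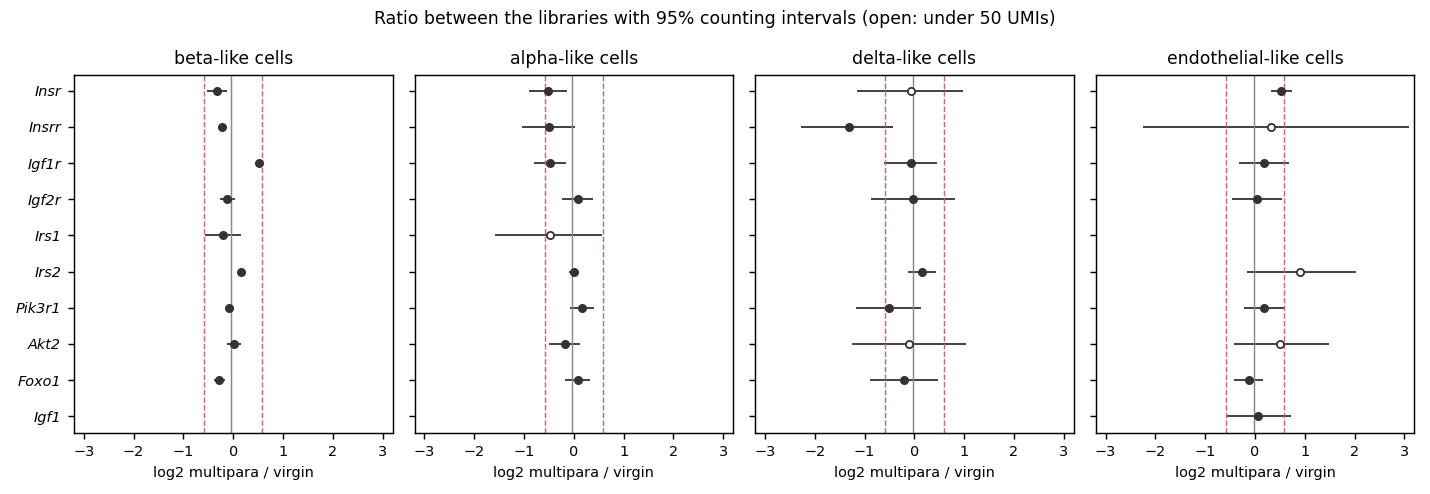
Log2 ratio of the multipara to the virgin level (x axis) of each of the 10 genes (y axis) in 4 classes, with 95% counting intervals; open points rest on under 50 UMIs, the grey line is the median of all genes and the dashed red lines mark 1.5-fold. Igf1r lies at 0.52 in beta-like and -0.47 in alpha-like cells, and Insr at -0.32 in beta-like and 0.53 in endothelial-like cells.

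Beta-like cells were next split, within each library, into 3 equal groups by the share of UMIs from 12 immediate early genes such as Fos, Junb, Egr1 and Npas4, which are transcribed within minutes of a stimulus. The split is a measurement on these dissociated cells, and how far it came from the islet or from dissociation was not tested. Irs2 followed it closely. In the virgin library Irs2 stood at 152 CPM (142 to 162) in the lowest group, 235 CPM (223 to 247) in the middle and 374 CPM (360 to 389) in the highest. In the multipara library the values were 103 CPM (95.1 to 112), 303 CPM (289 to 317) and 439 CPM (422 to 457). The log2 ratio of the highest to the lowest group was 1.30 (1.19 to 1.41) and 2.08 (1.95 to 2.22), past 2-fold in both libraries. Outside the 12 genes themselves, 0.5% of 11190 genes lay past 2-fold the same way in both libraries, and Irs2 was the only one of the 10 that did. The median depth of the lowest and highest groups was 28670 and 31888 UMIs in the virgin and 30881 and 34056 UMIs in the multipara library.

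Among the other genes, Igf2r ran against this split, with log2 ratios of the highest to the lowest group of -0.52 (-0.77 to -0.27) and -0.47 (-0.74 to -0.19), and Insrr did so by -0.15 (-0.29 to -0.01) and -0.30 (-0.46 to -0.14). Igf1r was higher in the multipara library within each of the 3 groups, at 149 against 110 CPM in the lowest, 166 against 121 CPM in the middle and 183 against 117 CPM in the highest. Foxo1 was lower in the multipara library within each of them, by log2 ratios of -0.36, -0.22 and -0.27. The groups were cut within each library and were not matched. Their immediate early level was 8913 CPM in the virgin and 8226 CPM in the multipara library in the lowest, 14906 and 17130 CPM in the middle and 22536 and 26956 CPM in the highest group. The multipara over virgin log2 ratio of Irs2 had the same signs as these levels, at -0.55 (-0.71 to -0.40) in the lowest group and 0.37 (0.27 to 0.47) and 0.23 (0.15 to 0.31) in the middle and highest groups; the part of the immediate early level in it was not tested. Summed over the 12 genes, the immediate early level of beta-like cells was 15686 CPM in the virgin and 17594 CPM in the multipara library. Single genes differed in direction, with Fos at 3792 and 3653 CPM and Npas4 at 155 and 246 CPM.

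**Figure D3:**
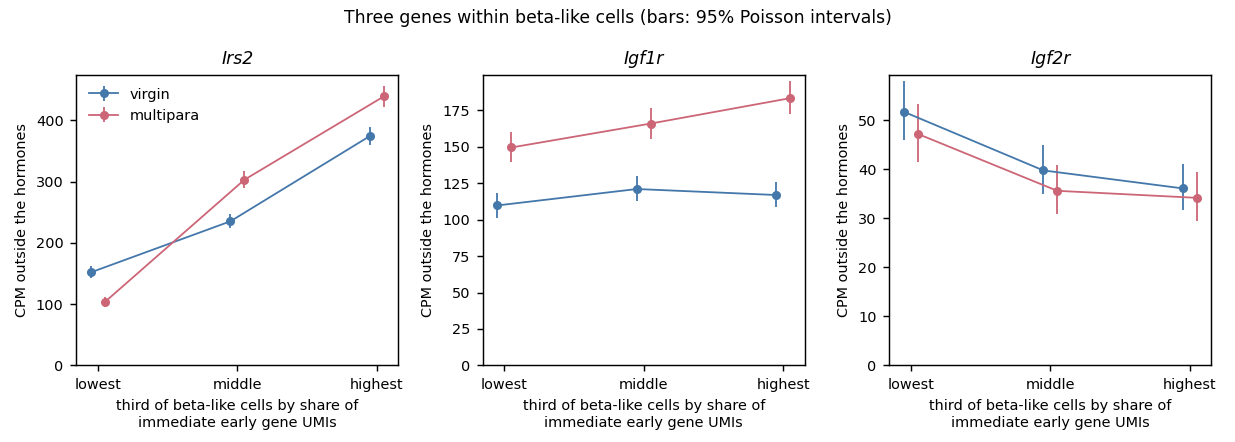
Level in CPM outside the hormones (y axis, from 0) of Irs2, Igf1r and Igf2r in the lowest, middle and highest group of beta-like cells by immediate early gene share (x axis), with 95% Poisson intervals, virgin in blue and multipara in red. Irs2 climbs from 152 to 374 CPM in virgin and from 103 to 439 CPM in multipara cells, Igf1r is higher in multipara cells in each group, and Igf2r is lowest in the highest group.

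The 250 bases before the RefSeq start site of Irs2 (GRCm38.p6, chr8:11008930-11009179, reverse strand) are shown because Irs2 is the one gene of the 10 that followed the immediate early genes past 2-fold. Capitals mark the CACGTG E-box, which begins at position -44 from the start site.

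Irs2 promoter: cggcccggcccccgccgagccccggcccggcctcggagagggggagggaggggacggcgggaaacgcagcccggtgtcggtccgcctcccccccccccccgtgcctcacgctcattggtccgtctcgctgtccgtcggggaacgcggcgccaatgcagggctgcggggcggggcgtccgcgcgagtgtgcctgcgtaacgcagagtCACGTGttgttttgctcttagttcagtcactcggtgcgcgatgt

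Promoter windows were found for 8 of the 10 genes, 12 windows in all, and both strands were searched for 4 motifs. For Akt2, Foxo1, Igf1 and Pik3r1 a window ended inside an annotated transcript on the same strand. The E-box CACGTG lay in the windows of Irs1, Irs2 and Igf2r and in 6.02% of the 32851 windows of all genes. The cAMP response element TGACGTCA (1.55% of all windows), the forkhead motif TGTTTAC (3.17%) and the AP-1 motif TGAGTCA (4.46%) were in none of the 12 windows. A match describes letters in a window, and no match says nothing about the factor.

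A second split of beta-like cells used Nupr1, a gene induced by cell stress, which was seen after thinning to 3000 UMIs in 259 virgin cells and not in 1358, and in 515 multipara cells and not in 850. In the virgin library Igf1r was at 147 CPM (134 to 161) where Nupr1 was seen and 109 CPM (104 to 114) where it was not, a log2 ratio of 0.44 (0.29 to 0.58). In the multipara library both sets of cells stood at 166 CPM. The multipara over virgin log2 ratio of Igf1r was 0.61 (0.51 to 0.71) where Nupr1 was not seen and 0.17 (0.02 to 0.33) where it was. Igf1r was thus higher in the multipara library in both sets of cells, and by more where Nupr1 was not seen. At 3000 UMIs a cell can hold Nupr1 that is not seen, so the split does not part cells with Nupr1 from cells without it. For Insr the multipara over virgin log2 ratio was -0.46 (-0.70 to -0.22) where Nupr1 was not seen and 0.22 (-0.21 to 0.66) where it was. Whether the Igf1r or the Insr ratio depends on Nupr1 was not tested.

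The wider pathway was followed with a list of 68 further genes. In beta-like cells 55 of them had at least 50 UMIs, 1 was higher and 4 were lower past 1.5-fold, 5 of 55 beside 6.44% of all genes, with a median log2 ratio of -0.01 beside -0.04 for all genes. The 1 higher gene was Igfbp5, a secreted protein that binds IGFs, with 11.5 CPM in virgin and 17.5 CPM in multipara cells. The lower genes were Igfbp7, from 309 to 198 CPM, Ide, from 46.1 to 26.5 CPM, Socs1, from 3.14 to 1.79 CPM, and Bcl6, from 2.45 to 1.13 CPM. Ide encodes the insulin-degrading enzyme, Socs1 a suppressor that binds cytokine and insulin receptors, and Bcl6 a transcriptional repressor that FoxO factors induce. Ide lay on the same side in alpha-like and delta-like cells, with log2 ratios of -0.80 in beta-like, -0.82 (-1.14 to -0.51) in alpha-like and -0.87 (-1.80 to 0.02) in delta-like cells. Its ratios in the other classes are not given here.

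By role, and beside 6.44% of all genes called and their median of -0.04, none of the 17 genes of the AKT arm (Akt1, Gsk3b, Mtor, Rheb and others) was called in beta-like cells, with a median of 0.02, and neither was any of the 6 adaptors or 7 PI3-kinase and lipid phosphatase genes with enough UMIs, with medians of 0.01 and -0.06. Of the 13 FoxO factors and targets only Bcl6 was called, and Txnip, a glucose-induced inhibitor of thioredoxin, had a log2 ratio of 0.28. Of the 8 brakes on the pathway, Ide and Socs1 were called, and the median was -0.18. The 4 ligand and binding protein genes with enough UMIs had a median of 0.42, from Igfbp7 at -0.64 to Igfbp5 at 0.61.

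**Figure D4:**
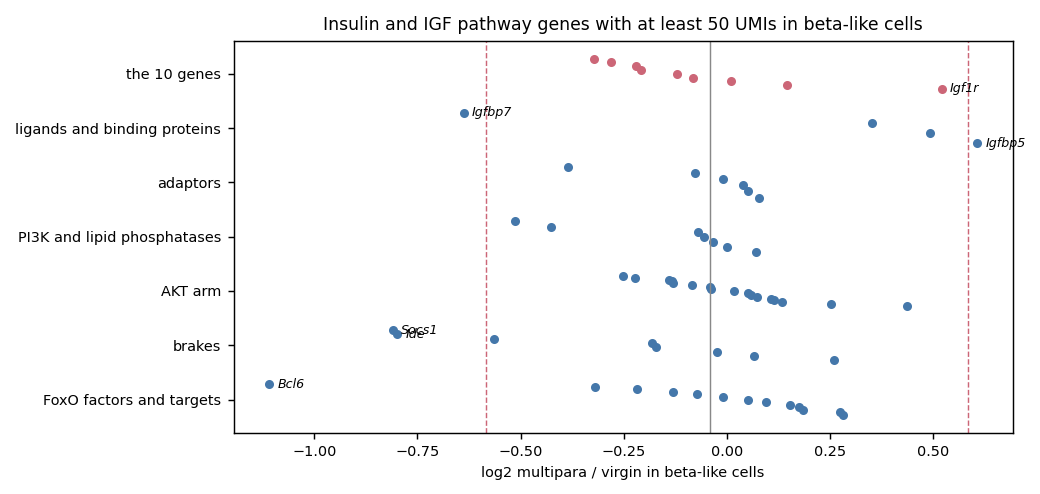
Log2 ratio of the multipara to the virgin level in beta-like cells (x axis) for the 9 of the 10 genes (red) and the 55 listed pathway genes (blue, by role on the y axis) with at least 50 UMIs; the grey line is the median of all genes and the dashed red lines mark 1.5-fold. Igfbp5 is the only gene past the upper line, and Igfbp7, Ide, Socs1 and Bcl6 lie past the lower one.

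The genes most like each of the 10 were sought by Pearson's r of log2(CPM + 10) over 19 points, each a class in 1 library, among genes that reached 50 CPM in at least 1 point. These points share libraries and depth, so r is a description. Insr was most like Rilpl1 (r = 0.95), Ripor1 (0.95) and Cdc42bpb (0.94). Insrr was most like Gpr45 (0.92), Cntnap2 (0.92) and Gm27033 (0.92), and Igf1r most like Rsrp1 (0.94), Rab22a (0.91) and Tmem65 (0.90). Igf2r had Atxn7l3b (0.93), Irs1 had Vasn (0.92) and Foxo1 had Ablim1 (0.91) as its first gene. Irs2 came closest to Inpp5f (0.89), a phosphoinositide phosphatase. For Pik3r1 it was Nfix (0.84), and for Akt2 it was Ntrk2 (0.81), the loosest match of the 10. Igf1 came closest to Slco2b1 (0.98), Ltc4s (0.98) and Mgst1 (0.96).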

How the data were processed

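The authors deposited raw UMI counts per gene and cell from the 10x 3′ v3.1 kit. The submitters' processing notes name Cell Ranger 3.1.0, Seurat 3.0 and GRCm38 (mm10). Barcodes with over 200 and under 6000 genes, under 60000 UMIs and under 10% mitochondrial UMIs were kept, as in the study, and doublets were called with Scrublet (scanpy 1.11.5): 61 virgin and 44 multipara cells. Beta-like cells had at least 10% insulin UMIs, and the other endocrine classes at least 2% of their own hormone, each with other hormones under 1% (insulin under 5%); further classes needed at least 3 markers. Cells that met no gate, or held more than 1 hormone, stayed unnamed (789 and 662). Counts were summed per class and library. Levels carry exact Poisson intervals, shares exact Clopper-Pearson intervals and ratios exact conditional binomial intervals; a count of 0 was limited at 3 counts. The ratio and its interval were tested on simulated data. Named genes were all 10 genes in each class with at least 30 cells, the pathway genes past 1.5-fold in beta-like cells (at most 5 each way) and the 3 genes most like each. The 10 genes and the lists were chosen with earlier results of these data known. The kit marks strand. Python 3.11.15, scipy 1.17.1, pandas 2.3.3 and edgeR 4.0.16 (TMM factors only) were used. Because each group has 1 library, no test was run. 10 alternative settings were planned and 2 were added after seeing the data.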

Additional observations from a re-analysis of the deposited data

How the results depend on the processing

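No paired analysis was possible because each group has 1 library and the labels give no replicate numbers; for the same reason no replicate could be left out. The cause of the changes below was not tested. Of the 10 genes, 0 were called between the libraries in beta-like cells, and 1, Igf1r, with mitochondrial UMIs under 5% or with the limit lowered to a ratio 25% above 1 or its inverse (17.7% of all genes called). With that lower limit 3 genes were called in alpha-like (17.5%), 2 in delta-like (27.2%) and 1 in endothelial-like cells (26.4%), and 12 pathway genes in beta-like cells. Without a minimum of UMIs, 2 genes were called in delta-like (38.4%) and 1 in endothelial-like cells (35.4%), and 10 pathway genes in beta-like cells in place of 5 (28.8%). The pathway count was 3 with mitochondrial UMIs under 5% and 1 with a 2-fold limit (2.15%). Thinned to 3000 UMIs, 0 genes were called in delta-like cells, where fewer UMIs were left, and the median log2 ratio of the genes in alpha-like cells was 0.24 in place of -0.09. With every cell weighted equally, that median in beta-like cells was 0.085 in place of -0.12. Against beta-like cells, the 4 genes lower in alpha-like cells became 2 with hormone UMIs in the scale and 2 with a 3-fold limit, and the 3 lower in delta-like cells became 1 with every cell weighted equally and 1 with a 3-fold limit. In B cell-like cells the ratio of Irs2 was -0.051 with every cell weighted equally, and that of Foxo1 was -0.46 with mitochondrial UMIs under 5% and -0.45 with the gate shares halved. Of 492 values over 41 pairs of a gene and a class, 471 moved by less than their counting interval. Another 18 moved further, 12 of them after thinning, and 3 were classed as reversed. Those 3 are not all of the values that changed sign. In beta-like cells the ratios of Insr (0.07) and Igf2r (0.008) were above 0 after thinning. Those of Insrr (0.11) and Pik3r1 (0.085) were above 0 with every cell weighted equally. The gate with Ppy allowed and a minimum of 1000 UMIs per cell were chosen after seeing the data. Depth limits the PP-like, pericyte-like, macrophage-like, T cell-like and B cell-like cells, where 2 to 4 of the 10 genes had 50 UMIs over both libraries.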

Other observations

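Igf1 was also found in classes too small to compare. The 6 multipara fibroblast-like cells held 17 Igf1 UMIs, and the 3 virgin duct-like cells held 7. Among the unnamed cells, most of which held more than 1 hormone, there were 4 Igf1 UMIs in 789 virgin cells and 0 in 662 multipara cells, while the same cells held 2068 and 1459 Irs2 UMIs.

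Endothelial-like cells, where Insr was higher in the multipara library, also differed in pathway genes that were named after their values were seen. Igfbp3, the main carrier of IGFs in blood, stood at 2423 CPM in the virgin and 4517 CPM in the multipara library (log2 ratio 0.90, 0.84 to 0.96). Igfbp4 had a log2 ratio of 0.60 (0.34 to 0.87). Socs1, lower in multipara beta-like cells, was higher in endothelial-like cells at 0.80 (0.44 to 1.17); whether these ratios differ between the classes was not tested. In endothelial-like cells 3 of the 39 listed genes with enough UMIs were higher and 2 were lower, beside 6.47% of all genes called. The lower ones were Pdpk1, the kinase that activates AKT, at -0.60 (-1.22 to -0.0026) from 58 and 41 UMIs, and Ccng2, a FoxO target, at -0.90 (-1.80 to -0.04) from 33 and 19 UMIs.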
